A study of Homo sapiens with 3 samples.

Results

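A set of 9 genes that respond to interferon, or that carry its signal to DNA, were followed in Molm13 cells, a human acute myeloid leukemia line that carries an internal tandem duplication of the FLT3 receptor gene. They were chosen by name and found by their Entrez identifiers, 9 of the 25702 genes in the deposited count tables, and the rule itself uses no measured value. Of these, 4 are transcription factors (STAT2, IRF1, IRF7 and IRF9) and 5 are interferon-stimulated genes (ISG15, IFI6, IFIT1, OAS1 and MX1). The question was whether the change in mitochondrial RNA under pyrvinium went with an interferon signature.

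The study treated Molm13 cells with pyrvinium pamoate, an anthelmintic drug known to act on mitochondria, and sequenced their messenger RNA. The 3 libraries came from cells kept for 6 h with the solvent DMSO, with 50 nM pyrvinium or with 100 nM pyrvinium, all from the same cell line. Each condition had 1 library, so no difference below has a replicate check. The intervals and exact binomial p-values cover counting error between the named libraries, not the spread between cultures.

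Type I interferons bind the receptor pair IFNAR1 and IFNAR2, whose kinases TYK2 and JAK1 phosphorylate STAT2. With IRF9 it is part of the complex ISGF3, which binds the interferon-stimulated response element (ISRE) in front of genes such as IFIT1 and MX1, while interferon gamma acts through the gamma-activated site (GAS), as in front of IRF1. Mitochondrial RNA is one possible trigger, because transcription of both strands of mitochondrial DNA can give double-stranded RNA, which the helicase SUPV3L1 and the nuclease PNPT1 clear and which the cytosolic sensor IFIH1 (MDA5) can detect.

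Response elements found in front of some of these genes are shown first. The RefSeq promoter sequences, from 250 bases before to 50 bases after each start, matched 8 of the 9 genes, all but IRF7. They were searched on both strands for the ISRE core (GAAA, any 2 bases, GAAA) and for the GAS core TTCNNNGAA, which reads the same on both strands. Of the 35116 promoters, 3.57% held the ISRE core and 7.66% held the GAS core. The stretches below run 5′ to 3′ on the strand of their gene, with the matched letters in capitals. Each stretch occurred once near its gene in GRCh37 (hg19), the build of the counts.
ISG15, ISRE core: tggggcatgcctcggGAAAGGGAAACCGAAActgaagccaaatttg
IFI6, ISRE core: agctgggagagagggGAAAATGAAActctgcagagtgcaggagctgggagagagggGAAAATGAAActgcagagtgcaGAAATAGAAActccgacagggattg
IFIT1, ISRE core on the opposite strand: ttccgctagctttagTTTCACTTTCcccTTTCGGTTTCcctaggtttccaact
IRF1, GAS core: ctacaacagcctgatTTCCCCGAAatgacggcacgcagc
The ISG15 stretch lies at chr1:948749-948794 on the plus strand and holds 2 overlapping matches, the first starting 113 bases before the RefSeq start. The IFI6 stretch lies at chr1:27998772-27998874 on the minus strand, with 3 matches from 156 bases before the start. The IFIT1 stretch lies at chr10:91152249-91152301 on the plus strand, with 2 matches from 116 bases before the start. The IRF1 stretch lies at chr5:131826566-131826604 on the minus strand, with 1 match 124 bases before the start. The promoters of OAS1 and IRF9 held no ISRE core in this window and 1 GAS core each, and that of STAT2 held neither. MX1 had 3 promoters in the table, and 2 of them held 1 ISRE core each. A match describes letters, not a bound site.

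The libraries held 22677038 to 24075123 counts assigned to genes, and 3 counts, the upper limit that a count of 0 allows, are 1.25e-05% to 1.32e-05% of a library. All 9 markers of myeloid blasts on the list passed the count filter, among them FLT3, CD33 and MPO. Markers of other cells were at 0 to 16 counts, and CD3E of T cells and EPCAM of epithelium had none. The 16 counts, in the 50 nM library, belong to the globin gene HBB, which had 0 in the other libraries. DDIT3, TRIB3 and CHAC1, stress genes downstream of ATF4, rose by 1.02, 1.18 and 2.05 on the log2 scale at 100 nM, each called by the rule stated next. Because these are bulk samples, a smaller share of responding cells and less RNA per cell cannot be told apart.

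None of the 9 genes was called between any pair of libraries. A gene was called where the exact binomial test on the counts, adjusted by Benjamini-Hochberg over the 12879 genes with at least 10 counts in some library, gave an adjusted p of at most 0.05 and the change was at least 2-fold. This rule called 1.72% of genes higher and 0.474% lower at 100 nM against DMSO, 0.699% higher and 0.256% lower at 50 nM against DMSO, and 0.202% higher and 0.295% lower at 100 nM against 50 nM. Of the 9 genes, 7 passed the filter, and IFI6 and MX1 did not. A weaker criterion was also counted, whether the 95% counting interval of the log2 fold change excluded 0. At 100 nM against DMSO it lay above 0 for 3 of the 9 genes (STAT2, IRF1 and IRF7) and below 0 for 1 (OAS1), against 24.0% and 25.3% of all tested genes. At 50 nM against DMSO it excluded 0 for none of the 9, against 18.6% above and 18.5% below among all tested genes. Between the doses it lay above 0 for STAT2 and IRF7 and below 0 for none, against 12.5% and 14.3% of all tested genes. The comparisons share libraries and are not independent of each other.

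Levels per length (TPM, counts per exon base scaled to the same total in each library, computed from the deposited counts and exon lengths) place the 9 genes in order. ISG15 was highest, at 25.0, 24.3 and 21.6 TPM in the DMSO, 50 nM and 100 nM libraries. STAT2 followed at 14, 15.4 and 19.2 TPM, then IRF7 at 9.53, 10.6 and 15.7 TPM. The range of ISG15 over the libraries did not overlap that of STAT2, whereas the ranges of STAT2 and IRF7 did overlap. IRF1 had 8.66, 9.93 and 11.4 TPM, and IRF9 had 8.74, 8.95 and 8.55 TPM. The ranges of IRF7 and IRF1, and of IRF1 and IRF9, overlapped as well. OAS1 stood far lower, between 0.824 and 1.48 TPM. IFI6 was between 0.682 and 0.858 TPM and IFIT1 between 0.450 and 0.788 TPM, ranges that overlapped each other, and that of IFI6 overlapped that of OAS1. MX1 was lowest, between 0.0910 and 0.163 TPM, below IFIT1 in every library. By mean TPM, ISG15 stood above 56.9% of the tested genes and OAS1 above 10.9%.

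**Figure D1:**
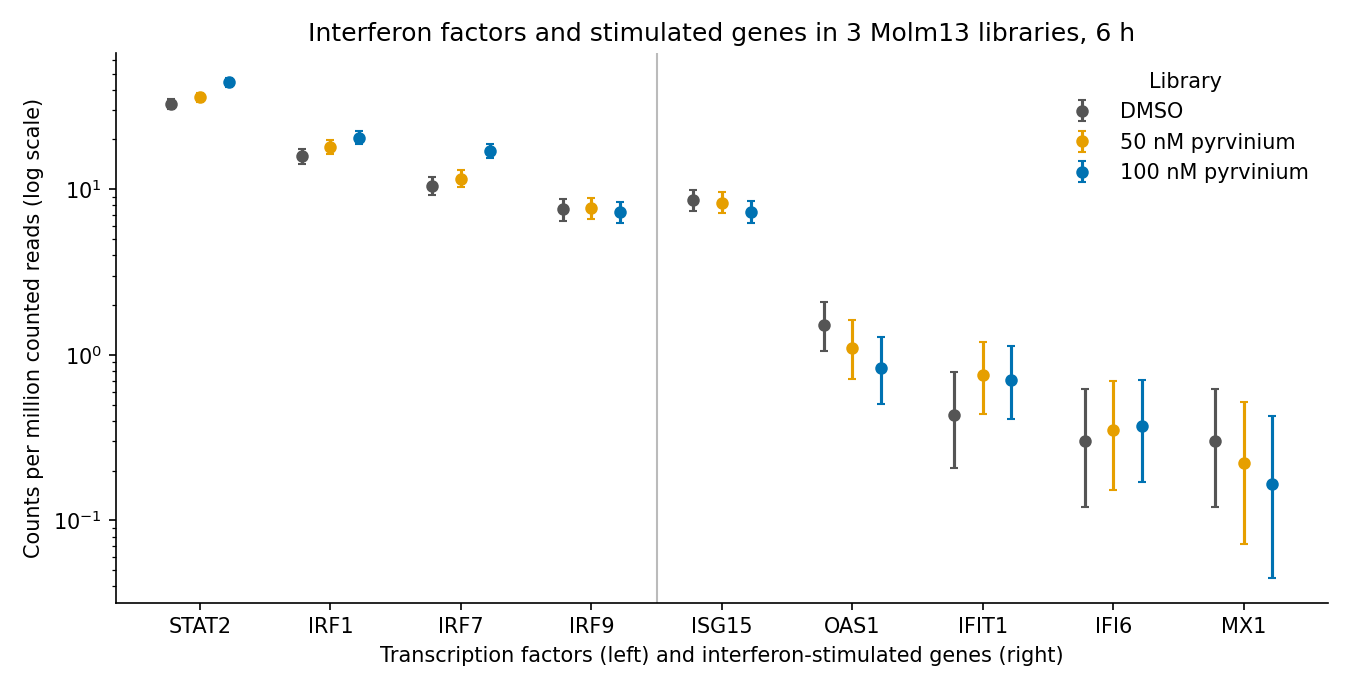
Counts relative to the library total (CPM, log axis) of the 9 genes in the DMSO, 50 nM and 100 nM libraries, 1 library each, with exact 95% Poisson intervals as bars. STAT2, IRF1 and IRF7 are highest in the 100 nM library, IRF9 is level, and OAS1, IFIT1, IFI6 and MX1 lie lowest with wide intervals that overlap between libraries.

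The 4 transcription factors did not move alike. After scaling to library size, STAT2, IRF1 and IRF7 were 1.29-fold to 1.62-fold higher at 100 nM than in DMSO. IRF9 was level, at 0.961-fold. STAT2 (Entrez 6773, chr12:56735381-56754037, minus strand) brings the transactivating domain to ISGF3. It had 760 counts in DMSO, 812 at 50 nM and 1068 at 100 nM. The 100 nM library was highest and the 50 nM library close to DMSO. The log2 fold change was 0.43 at 100 nM (95% counting interval 0.30 to 0.57, adjusted p = 2.01e-09 by the exact binomial test). At 50 nM it was 0.13 (interval -0.01 to 0.27, adjusted p = 0.190 by the same test).

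IRF7 (Entrez 3665, chr11:612555-615999, minus strand) drives interferon alpha genes and is itself induced by interferon in many cells. It had 243 counts in DMSO, 263 at 50 nM and 409 at 100 nM, so that the increase lay between the 2 doses. The log2 fold change was 0.69 at 100 nM against DMSO (interval 0.46 to 0.93, adjusted p = 1.76e-08 by the exact binomial test). Between the doses it was 0.54 (interval 0.32 to 0.77). It was 0.15 at 50 nM against DMSO, with an interval of -0.11 to 0.41 that spans 0. IRF7 showed the largest change of the 4 factors and was the 1 gene of the 9 that a threshold of 1.5-fold would call.

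IRF1 (Entrez 3659, chr5:131817301-131826465, minus strand), a factor induced by interferon gamma and by NF-kB, had 367 counts in DMSO, 409 at 50 nM and 494 at 100 nM. Its counts lay in the order of the dose. For 100 nM against DMSO the log2 fold change was 0.37 (interval 0.17 to 0.57, adjusted p = 0.000762 by the exact binomial test). At 50 nM it was 0.19, with an interval of -0.02 to 0.40.

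IRF9 (Entrez 10379, chr14:24630422-24635774, plus strand), the DNA-binding subunit of ISGF3, had 175 counts in DMSO, 174 at 50 nM and 175 at 100 nM. The 3 libraries were level, and the log2 fold change was -0.06 at the higher dose (interval -0.37 to 0.25). Summed over the 4 factors, the counts were 1545, 1658 and 2146 in the DMSO, 50 nM and 100 nM libraries, a log2 ratio of 0.42 at 100 nM (interval 0.32 to 0.51). STAT2 supplied about as many of these counts as the other factors together. The intervals of the factors hold counting error alone. When edgeR's exact test was given a coefficient of variation between cultures of 0.1, the adjusted p was 0.42 for STAT2, 0.60 for IRF1 and 0.115 for IRF7. A linear dose trend over the 3 libraries was tested by edgeR's quasi-likelihood method with 1 residual degree of freedom. It gave an adjusted p of 0.00263 for STAT2, 0.0338 for IRF1 and 0.00175 for IRF7, and of 0.861 for IRF9. Among all tested genes, 2633 of 12879 had an adjusted p of at most 0.05 by this method. Its residual is the departure from a straight line over single libraries, so the spread between cultures of 1 condition was not measured.

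The 5 stimulated genes showed no common rise. Of the 5, 3 had fewer counts at 100 nM than in DMSO (ISG15, OAS1 and MX1) and 2 had more (IFIT1 and IFI6). IFIT1, IFI6 and MX1 had at most 17 counts in any library. At 100 nM against DMSO, OAS1 alone of the 5 had an interval that excluded 0. ISG15 (Entrez 9636, chr1:948847-949920, plus strand), a ubiquitin-like protein that interferon induces strongly, had 199 counts in DMSO, 188 at 50 nM and 176 at 100 nM. DMSO was highest, by a margin inside the counting error. For 100 nM against DMSO the log2 fold change was -0.23 (interval -0.54 to 0.07, adjusted p = 0.219 by the exact binomial test). The upper end of that interval leaves room for a rise of at most 0.07 on the log2 scale as far as counting goes.

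OAS1 (Entrez 4938, chr12:113344739-113357712, plus strand), an enzyme activated by double-stranded RNA, had 35 counts in DMSO, 25 at 50 nM and 20 at 100 nM. The counts lay in reverse order of the dose. Its log2 fold change was -0.85 at 100 nM (interval -1.73 to -0.03, adjusted p = 0.0864 by the exact binomial test), so it did not pass after adjustment. IFIT1 (Entrez 3434, chr10:91152322-91163745, plus strand), which binds RNA lacking the host cap, had 10 counts in DMSO and 17 in each pyrvinium library. Its log2 fold change of 0.68 at 100 nM had an interval of -0.50 to 2.0, and the adjusted p was 0.42 by the exact binomial test.

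IFI6 (Entrez 2537, chr1:27992572-27998724, minus strand), a small membrane protein with antiviral and antiapoptotic roles, had 7 counts in DMSO, 8 at 50 nM and 9 at 100 nM. MX1 (Entrez 4599, chr21:42792520-42831141, plus strand), a dynamin-like antiviral GTPase, had 7 counts in DMSO, 5 at 50 nM and 4 at 100 nM. Both stayed under the filter of 10 counts in every library and were not tested. Their log2 fold changes at 100 nM had intervals of -1.29 to 1.97 for IFI6 and -3.08 to 1.11 for MX1, so a 2-fold change of either was not detectable at this depth. Pooling narrows the interval for the group, not for either gene. The 5 stimulated genes together had 258 counts in DMSO, 243 at 50 nM and 226 at 100 nM. The log2 ratio of the pooled counts was -0.25 at 100 nM (interval -0.51 to 0.02). ISG15 gave most of these counts, and without it the other 4 had 59, 55 and 50 counts, a log2 ratio of -0.30 (interval -0.87 to 0.27). Of those, OAS1 gave 35, 25 and 20 and IFIT1, which went the other way, gave 10, 17 and 17. The fall of this pool is therefore largely that of OAS1. The pooled interval of the 5 stimulated genes lay wholly below that of the 4 factors. Both intervals hold counting error between single libraries alone, and the factor pool rests largely on STAT2. The interval of IRF9 by itself (-0.37 to 0.25) overlapped that of the stimulated genes. No exon of the 9 genes shares a position with another counted gene.

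**Figure D2:**
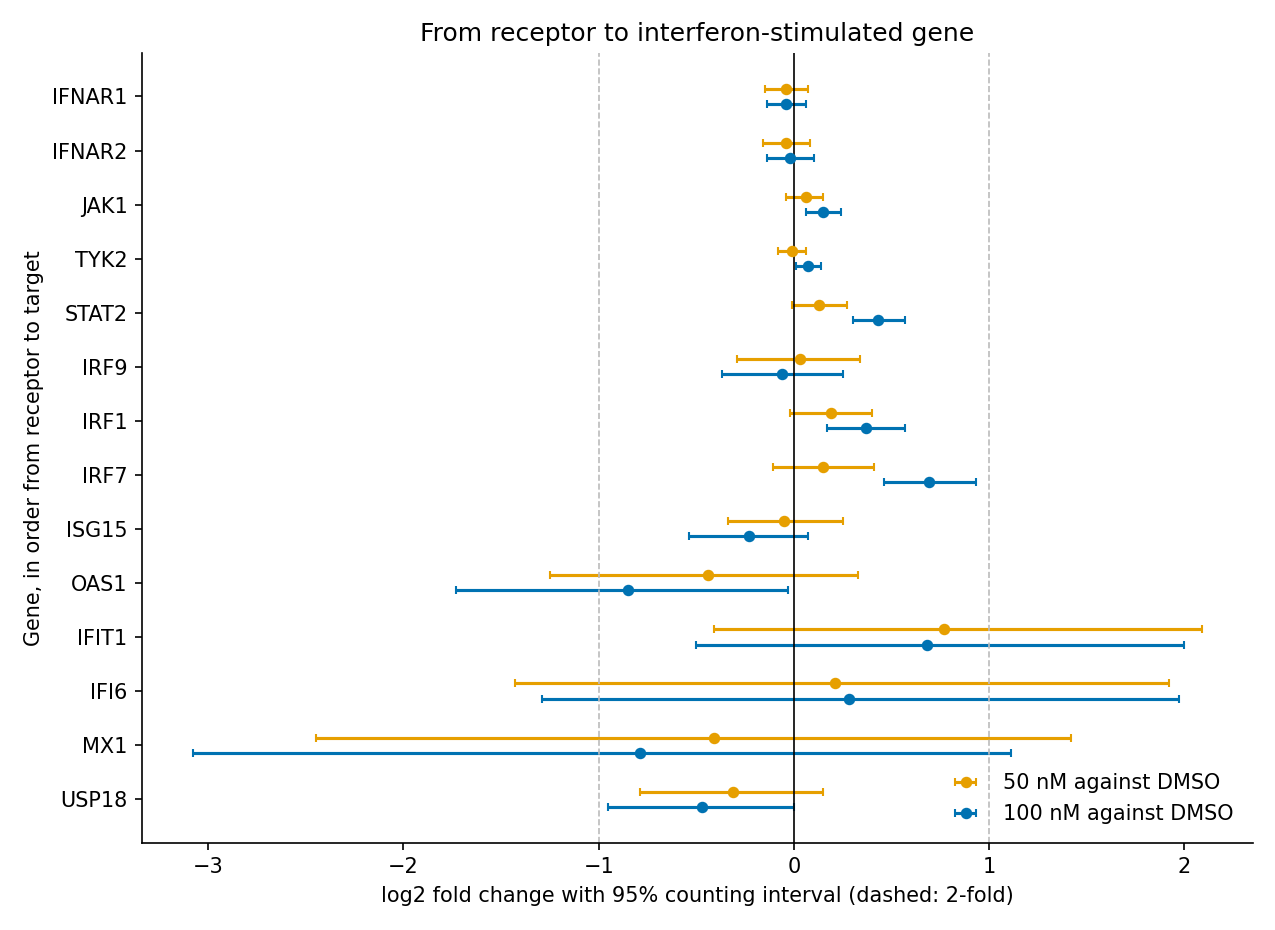
Log2 fold change of 50 nM and 100 nM pyrvinium against DMSO for genes from the type I interferon receptor to its targets, with 95% counting intervals as bars and dashed lines at 2-fold; both doses are set against the same DMSO library. STAT2 (0.43), IRF1 (0.37) and IRF7 (0.69) lie to the right of 0 at 100 nM, while the receptors are near 0 and the stimulated genes lie on both sides.

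Over all 9 genes, filter aside, the median log2 fold change was 0.28 at 100 nM against DMSO, with 5 genes higher and 4 lower. It was 0.13 at 50 nM against DMSO and -0.08 at 100 nM against 50 nM, while the median of all tested genes was 0.00 to 2 decimals in each comparison. The 0.28 is the value of IFI6, which had 7 to 9 counts and was not tested. Over the alternatives the value for the 9 at 100 nM ran from 0.06 for their mean, through 0.17 for the median with 5 counts added per library, to 0.37 for the median of the genes with at least 50 counts.

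Upstream of the 9 genes, no interferon was counted. All 21 interferon genes on the list, 17 of type I including IFNB1, with IFNG and 3 of type III, had 0 counts in each of the 3 libraries, below the limit of 3 counts per library. The interferon alpha genes are near-identical copies, and reads that match several of them may not have been counted. The libraries came from polyadenylated RNA at a single time, and interferon protein was not measured. The receptor chains differed from DMSO by less than the counting error. IFNAR1 had 1490, 1416 and 1508 counts in the DMSO, 50 nM and 100 nM libraries, a log2 fold change of -0.04 at 100 nM (interval -0.14 to 0.06). IFNAR2 had 1139, 1082 and 1168 counts, a change of -0.02 (interval -0.14 to 0.10).

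Of the 9 receptor and kinase genes 8 were tested, and none was called in any comparison. Among all tested genes at most 1.72% were called higher and 0.474% lower. At 100 nM the interval lay above 0 for 4 of the 8 and below 0 for none, against 24.0% and 25.3% of all tested genes. Their median log2 fold change was 0.08, against 0.00 for all genes. The highest values were those of the kinases JAK2, at 0.21 (adjusted p = 0.0143 by the exact binomial test), and JAK1, at 0.15 (adjusted p = 0.00446 by the same test). TYK2 had a value of 0.07 (interval 0.01 to 0.14), with 3536, 3434 and 3868 counts in the 3 libraries. IFNGR2, a chain of the interferon gamma receptor, had the lowest value at -0.30, with an interval that spans 0. IFNLR1, which binds type III interferons, had no count.

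Of the 12 other STAT and IRF genes 9 were tested, and none was called in any comparison. Among all tested genes at most 1.72% were called higher and 0.474% lower. The interval at 100 nM lay above 0 for 1 of the 9 and below 0 for 3, against 24.0% and 25.3% of all tested genes. At 100 nM, STAT6, which carries interleukin 4 signals, had 5870, 5193 and 4870 counts in the 3 libraries and a log2 fold change of -0.33 (interval -0.38 to -0.27). IRF3, the constitutive factor that starts transcription of IFNB1 after sensing, had 1959, 1587 and 1606 counts and a change of -0.34 (interval -0.44 to -0.25). IRF8, a myeloid factor, was by far the most counted STAT or IRF gene on the list, with 15787, 16396 and 16913 counts, and had a log2 fold change of 0.04. IRF5 had the highest value of this group, 0.08.

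The nucleic acid sensors did not move as a group. Of 19 sensors and adaptors 14 were tested and none was called in any comparison. Among all tested genes at most 1.72% were called higher and 0.474% lower. At 100 nM the interval lay above 0 for 3 and below 0 for 5, against 24.0% and 25.3% of all tested genes, and the median log2 fold change was -0.06. The RNA helicases IFIH1 and RIGI, sensors of double-stranded and uncapped RNA that interferon itself induces, had few counts. IFIH1 had 41, 44 and 46 counts in the DMSO, 50 nM and 100 nM libraries, a log2 fold change of 0.11 (interval -0.53 to 0.75). RIGI had 117, 126 and 104 counts, a change of -0.23 (interval -0.62 to 0.17). Their mitochondrial adaptor MAVS was well expressed at 3179, 3277 and 3513 counts and had a log2 fold change of 0.09.

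Among the other sensors, STING1, the adaptor for cytosolic DNA sensing, had 2059, 2317 and 2742 counts in the 3 libraries. Its log2 fold change at 100 nM was 0.36 (adjusted p = 3.56e-16 by the exact binomial test). CGAS, the enzyme that signals to STING1, had a value of 0.14, with an adjusted p of 0.0822 by the same test. The 5 genes with an interval below 0, named after their values were seen, were the kinase IKBKE at -0.62, the DNA sensors TLR9 at -0.52 and IFI16 at -0.52, and the Toll-like receptor adaptors TICAM1 at -0.51 and MYD88 at -0.45. MYD88 had 1640, 1389 and 1248 counts, in reverse order of the dose.

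Among 7 enzymes that clear or modify nucleic acids, none was called in any comparison, where at most 1.72% of all tested genes were called higher and 0.474% lower. The interval at 100 nM lay above 0 for 1 of the 7 and below 0 for 2, against 24.0% and 25.3% of all tested genes. TREX1, the nuclease that degrades cytosolic DNA, had 353 counts in DMSO, 272 at 50 nM and 231 at 100 nM. Against DMSO the higher dose gave a log2 fold change of -0.67 (interval -0.91 to -0.43, adjusted p = 2.73e-07 by the exact binomial test). RNASEH2B, a subunit of the enzyme that removes ribonucleotides from DNA, had a value of 0.30. SAMHD1, which breaks down deoxynucleotides, had one of 0.38, with an interval that spans 0. RNASEH2C, another subunit of that enzyme, had 947, 877 and 900 counts and a value of -0.13, with an interval that spans 0. ADAR, which edits double-stranded RNA, had 6935, 6834 and 7099 counts and had a log2 fold change of -0.02.

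The brakes on the pathway, of which several are interferon-stimulated, did not rise with the factors. All 9 were tested and none was called in any comparison, against at most 1.72% higher and 0.474% lower among all tested genes. Of the 9, 8 had a negative log2 fold change at 100 nM, with a median of -0.12 over the 9. Among all 12879 tested genes, 6487 had a negative value. USP18, which removes ISG15 from proteins and blocks IFNAR2 signaling, had 88, 69 and 66 counts in the DMSO, 50 nM and 100 nM libraries. DMSO was highest, and the log2 fold change was -0.47 (adjusted p = 0.105 by the exact binomial test). SOCS3, induced by STAT3, had 57, 41 and 34 counts, a change of -0.79 (adjusted p = 0.0308 by the same test). PTPN2, a phosphatase that acts on JAK1, had the highest value, 0.18.

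The wider list held 54 other genes stimulated by type I interferon. Of these, 3 had no count, 10 stayed under the filter and 41 were tested. At 100 nM, 15 of the 41 were higher and 26 lower than in DMSO, with the interval above 0 for 6 and below 0 for 15, against 24.0% above and 25.3% below among all tested genes. The median log2 fold change was -0.12 at 100 nM, -0.08 at 50 nM and -0.04 between the doses. Just 1 gene was called, XAF1 at 100 nM, against 1.72% called higher among all tested genes, and none at 50 nM or between the doses.

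XAF1, a proapoptotic binding partner of XIAP, had 611 counts in DMSO, 866 at 50 nM and 1328 at 100 nM. Each step of dose was higher than the one before. Its log2 fold change was 1.06 at 100 nM (interval 0.92 to 1.20, adjusted p = 6.07e-53 by the exact binomial test) and 0.54 at 50 nM. APOL6, another proapoptotic gene of the list, had 885, 1048 and 1369 counts and a change of 0.57 at 100 nM. The 2 promoters of XAF1 in the RefSeq table held no ISRE or GAS core in this window. With a preset coefficient of variation of 0.1 between cultures, XAF1 kept an adjusted p of 0.000257 in edgeR's exact test, and with 0.2 its adjusted p was 1.

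BST2, or tetherin, which holds virus particles at the cell surface, went the other way. It had 1096 counts in DMSO, 824 at 50 nM and 742 at 100 nM, and the higher dose differed from DMSO by -0.62 on the log2 scale (adjusted p = 1.8e-18 by the exact binomial test). Its promoter is shown because it carries the same element as ISG15, with 2 overlapping ISRE cores from 130 bases before the start (chr19:17516539-17516584, minus strand, GRCh37), in capitals.
BST2, ISRE core: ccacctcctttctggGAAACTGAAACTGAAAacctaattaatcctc
PARP9, which acts with DTX3L in ubiquitin signaling, had 123, 92 and 83 counts and a change of -0.62. RSAD2 (viperin) had 2, 4 and 10 counts and IFI44 had 4, 4 and 10, numbers named after they were seen. At 100 nM RSAD2 had the highest log2 fold change of the 41 tested genes, 2.01 (interval 0.03 to 5.50). Its adjusted p was 0.0936 by the exact binomial test. The change of IFI44 was 1.17 (interval -0.53 to 3.39), and with so few counts neither gene passed the test. Of the 2 promoters of RSAD2, 1 held an ISRE core, 145 bases before the start. IFIT3 had 26, 17 and 26 counts, level between DMSO and 100 nM.

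Among all tested genes with a promoter sequence, 396 of 9705 held the ISRE core. Their median log2 fold change at 100 nM was 0.01, against -0.01 for all 9705. Of the 396, 5 were called higher (1.26%) and 2 lower (0.505%). The shares over all 12879 tested genes, with or without a promoter sequence, were 1.72% and 0.474%. The shares called among the 9705 alone were not computed. The counting interval lay above 0 for 26.3% of them and below 0 for 25.0%, against 24.6% and 27.2% of all 9705. With a longer form, in which CT follows the core, 35 tested genes remained and none was called at either dose, with a median of 0.05 at 100 nM. The 804 tested genes with a GAS core had a median of -0.02.

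**Figure D3:**
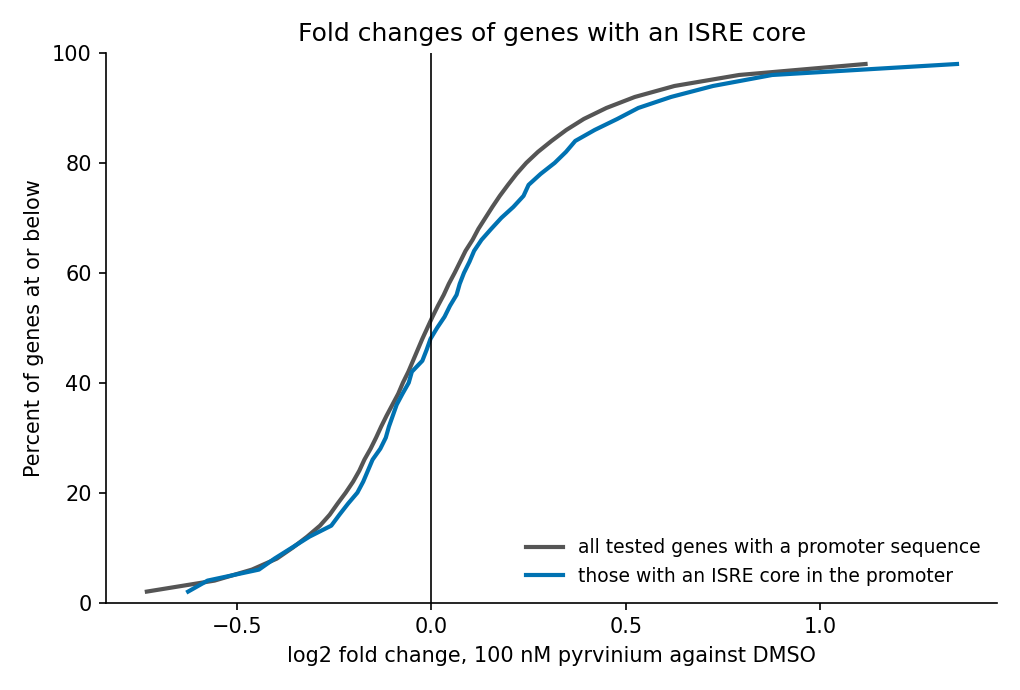
Cumulative distribution of the log2 fold change at 100 nM pyrvinium against DMSO, from the 2nd to the 98th percentile, for 9705 tested genes with a RefSeq promoter (grey) and the 396 of them with an ISRE core (blue). The curves run close together through 0, with medians of -0.01 and 0.01. From the 12th percentile up the blue curve lies to the right of the grey. At the 90th percentile it stands at 0.532 against 0.450, and at the 98th at 1.351 against 1.116. This difference was not tested.

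Genes known for interferon gamma were mixed. Of 23 on the list 14 were tested, and 2 were called, both higher at 100 nM, where 1.72% of all tested genes were called higher. CXCL11, a chemokine for activated T cells, had 8, 12 and 29 counts in the DMSO, 50 nM and 100 nM libraries, a log2 fold change of 1.74 (interval 0.64 to 3.14, adjusted p = 0.00374 by the exact binomial test). CIITA, the master regulator of MHC class II, had 8, 19 and 22 counts, a change of 1.35 (interval 0.18 to 2.78) with an adjusted p of 0.0499 by the same test, at the edge of the threshold. Both had 8 counts in DMSO, and with a coefficient of variation of 0.1 between cultures edgeR's exact test gave an adjusted p of 0.0808 for CXCL11 and 0.325 for CIITA.

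The better counted genes of that list did not follow CXCL11 as a group, and the 14 had a median log2 fold change of -0.11 at 100 nM. WARS1, the cytosolic tryptophanyl-tRNA synthetase, had 3433, 4130 and 5033 counts and a change of 0.49, and is known as a target of ATF4 too. FCGR1A, a high-affinity IgG receptor, had a log2 fold change of 0.23. GBP3, a guanylate-binding protein, had 85, 63 and 55 counts and a change of -0.68, and TAP2, a peptide transporter subunit, had a change of -0.21 with an interval of -0.43 to 0.01. CXCL9, IDO1, GBP1 and GBP4 had no count.

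**Figure D4:**
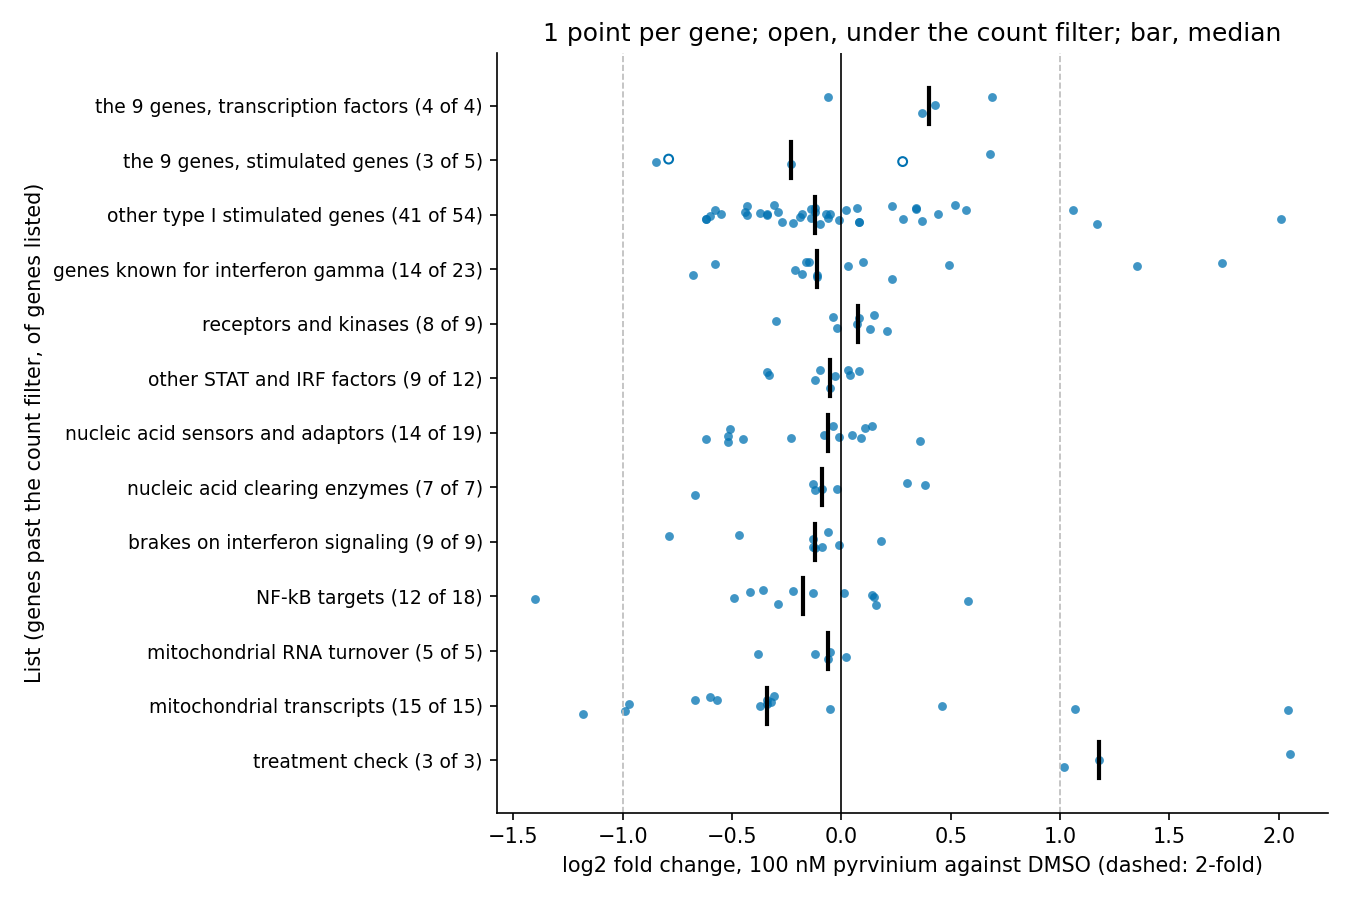
Log2 fold change at 100 nM pyrvinium against DMSO, 1 point per gene and a bar at the median, for each gene list, with dashed lines at 2-fold; open points are IFI6 and MX1, under the count filter. The other type I stimulated genes had a median of -0.12 and ran from -0.62 to 2.01. The interferon gamma genes had a median of -0.11 and ran from -0.68 to 1.74. The 4 factors had a median of 0.40. On these lists XAF1, CXCL11 and CIITA lay past 2-fold and passed the test. CCL3 of the NF-kB targets did so as a fall, at -1.40. MT-RNR1, MT-RNR2, MT-ND5, DDIT3, TRIB3 and CHAC1 were also called. Mitochondrial transcripts ran from -1.18 to 2.04, with a median of -0.34.

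Both mitochondrial ribosomal RNAs were called higher at 100 nM in the same libraries. MT-RNR1, the small ribosomal RNA, had 15742 counts in DMSO, 26577 at 50 nM and 67427 at 100 nM, a log2 difference of 2.04 between 100 nM and DMSO. MT-RNR2, the large ribosomal RNA, had 144258, 166105 and 315015 counts, a change of 1.07. In edgeR's exact test with a coefficient of variation of 0.1 between cultures, the adjusted p was 9.6e-18 for MT-RNR1 and 8.28e-05 for MT-RNR2. With 0.2, MT-RNR1 still passed, at 0.00785, and MT-RNR2 did not. The libraries came from polyadenylated RNA, and the tails of these RNAs were not measured. MT-ND6, the messenger on the other strand of mitochondrial DNA, had 9188, 7332 and 13170 counts, so it was lowest at 50 nM and highest at 100 nM, a change of 0.46. The remaining 12 mitochondrial transcripts had intervals below 0 at 100 nM, with log2 fold changes from -1.18 to -0.05. MT-ND5 was called lower, with 76054, 43481 and 34880 counts and a log2 fold change of -1.18. Its adjusted p in edgeR's exact test was 6.66e-06 with a coefficient of variation of 0.1 and 0.836 with 0.2. MT-CYB had the next largest fall, at -0.99. The smaller of these falls did not exceed the sizes seen among the 9 genes, and the median of all 15 transcripts was -0.34. Because the sources used here do not state whether counting used the strand, reads of MT-ND6 and of transcripts opposite to it cannot be told apart, and no double-stranded RNA was measured.

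Of 5 genes of mitochondrial RNA turnover none was called, against at most 1.72% higher and 0.474% lower among all tested genes. At 100 nM 2 had an interval below 0 and none above, against 25.3% below and 24.0% above among all tested genes. SUPV3L1 had 1963, 1900 and 1883 counts in the DMSO, 50 nM and 100 nM libraries, a log2 fold change of -0.12 at 100 nM (interval -0.21 to -0.03). PNPT1 had 4704, 4502 and 4717 counts, a change of -0.05. REXO2, which degrades the short RNA products, had 1160, 1014 and 929 counts, a change of -0.38 (adjusted p = 2.42e-08 by the exact binomial test). MTPAP, the mitochondrial poly(A) polymerase, had a log2 fold change of 0.02. A later response, and changes in protein or phosphorylation, were not measured.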

How the data were processed

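Messenger RNA was sequenced from Molm13 cells given DMSO, 50 nM or 100 nM pyrvinium for 6 h, in 1 library per condition. In 1 label the unit of the higher dose lacks its prefix, and the 100 nM stated elsewhere was used. The authors made stranded libraries, mapped read pairs to hg19 (Rsubread) and deposited raw counts per gene as whole numbers. The strand setting of the counting is not given in the sources used here. The authors also deposited a table of EBSeq posterior probabilities, fold changes and means per condition, which was not used.

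RefSeq gave a symbol for 23696 of the 25702 Entrez identifiers (assembly GRCh38.p14, used for names and promoter sequences only). Coordinates are those of the deposited counts, and promoter stretches were placed in GRCh37 by exact sequence match. Library sizes were scaled by TMM (edgeR 4.0.16, R 4.3.3). Genes that reached 10 counts in any library, 12879 in all, were compared between pairs of libraries by an exact binomial test, two-sided by doubling the smaller tail, with the scaled sizes setting the expected split (scipy 1.17.1). Adjustment was by Benjamini-Hochberg over all of them, and intervals are 95% Clopper-Pearson. Calls needed a 2-fold change and an adjusted p no higher than 0.05. For fold changes, 0.5 counts were added in each library. The test compares libraries, not conditions. On simulated counts for 100 nM against DMSO it called 181 of 195 changed genes and 1 unchanged gene among 12824, and 95.6% of the intervals held the true value. The simulated counts held Poisson counting error alone, with no spread between cultures. Their true changes were all larger than those of the 9 genes. The simulation therefore gives no error rate for differences between conditions or for changes as small as those of the 9.

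The 9 genes, all lists, tests and alternatives were chosen with earlier results of these data known. Besides the 9, the text names genes of the receptor to ISGF3 path (some items are not reported here), and from each list the genes called in any comparison and the 2 largest rises and 2 largest falls at 100 nM among genes whose higher library had at least 50 counts. Other genes were named after their values were seen or for their role. Alternatives were scaling by total counts, by DESeq2 1.42.0 size factors or by TMM without mitochondrial genes, other filters and thresholds, 5 counts added, other list summaries, an exact test in edgeR given a preset spread between cultures, and a linear dose trend by edgeR's quasi-likelihood test with 1 residual degree of freedom.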

Additional observations from a re-analysis of the deposited data

How the results depend on the processing

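Scaling by DESeq2 size factors, by total counts or by TMM without mitochondrial genes shifted the log2 fold changes of all genes by at most 0.005 and changed no direction or call among the 9 genes. A threshold of 1.5-fold called IRF7 at 100 nM against DMSO, 1 of the 9 genes, at a log2 fold change of 0.69. The genes called numbered 283 at 100 nM against DMSO, 123 at 50 nM against DMSO and 64 between the doses. When edgeR's exact test was given a coefficient of variation between cultures of 0.1, 0.2 or 0.4, these became 137, 12 and 0 at 100 nM against DMSO, 27, 0 and 0 at 50 nM against DMSO, and 15, 4 and 0 between the doses. At 1.5-fold the counts were 864, 332 and 143 in the same order of comparisons, and with at least 50 counts in some library 146, 45 and 14. The linear dose trend over the 3 libraries, by edgeR's quasi-likelihood test, gave an adjusted p of at most 0.05 for STAT2, IRF1 and IRF7, 3 of the 7 tested genes of the 9, and for 2633 of 12879 genes.

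The median log2 fold change of the 9 genes at 100 nM against DMSO was 0.17 with 5 counts added, and their mean was 0.06. Between the doses the median was -0.08, but it was 0.18 with at least 50 counts, and the log2 ratio of summed counts was 0.23. The direction between the doses thus depended on the summary used. For the other type I stimulated genes at 100 nM the mean was 0.00, the summed ratio -0.07 and the median over all genes with a count -0.06, the last chosen after seeing the data. At 50 nM these were -0.02, -0.03 and -0.06, and between the doses the mean was 0.02. No paired analysis was possible because each condition had 1 library.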

Other observations

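Targets of NF-kB, which many of the same sensors also activate, moved both ways. Of 18 on the list 12 were tested, with a median log2 fold change of -0.18 at 100 nM against DMSO. TNFAIP3, an inhibitor of NF-kB signaling, had 1372, 1660 and 2127 counts in the DMSO, 50 nM and 100 nM libraries, a change of 0.58 at 100 nM (adjusted p = 9.78e-30 by the exact binomial test). NFKBIA, another inhibitor, had a log2 fold change of 0.16 with an interval that spans 0. CCL3, a chemokine, had 21, 9 and 8 counts and was called lower at 100 nM, at -1.40 (adjusted p = 0.0432 by the same test, and 0.38 in edgeR's exact test with a coefficient of variation of 0.1). RELB had 57, 25 and 42 counts and was called lower at 50 nM, at -1.14 (adjusted p = 0.00464 by the exact binomial test, and 0.458 in edgeR's with a coefficient of variation of 0.1), but its change of -0.49 at 100 nM had an interval that spans 0. ICAM1 had a log2 fold change of -0.42 at 100 nM.

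On chromosome 9, where most type I interferon genes lie in a cluster, each had 0 counts while KLHL9, a gene inside the cluster, had 493, 467 and 571 counts. MTAP, on the far side, had 1106, 1092 and 1165 counts, and CDKN2A and CDKN2B beyond it had 0 in every library. CDKN2B-AS1, an antisense RNA that spans CDKN2B, had 9, 17 and 16 counts. These genes were chosen after their values were seen, and DNA copy number was not measured.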
